A study of Mus musculus with 8 samples.

Results

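The VEGF and angiopoietin system was followed through 10 mouse genes in cells of a subcutaneous tumor separated by magnetic columns. The genes were listed by name, but with earlier results of these data known. The genes comprise the receptors and co-receptor Kdr, Flt1, Flt4, Nrp1, Tek and Tie1, the receptor phosphatase Ptprb, and the ligands Angpt2, Vegfa and Vegfc. They are 10 of the 35975 genes to which the deposited transcripts were assigned. The iron positive group was the column eluate and the iron negative group the flowthrough, with 4 bulk RNA-seq libraries in each (tags 3L, 3R, 4R and 5L in both fractions). Both groups came from syngeneic fibrosarcomas implanted under the skin of wild-type C57BL/6 mice, digested with collagenase b and DNase I and freed of red blood cells by lysis. No allele, drug or time point separates them, and the ages of the mice are not given in the sources used here. The series title speaks of macrophages, but no antibody sort is named in the labels, and both fractions can hold other cells of the tumor.

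Vascular endothelial growth factors bind receptor tyrosine kinases on endothelial cells. KDR (VEGFR2) carries most of the growth and permeability signal of VEGF-A, FLT1 (VEGFR1) binds VEGF-A tightly with a weaker kinase and also has a secreted form, and FLT4 (VEGFR3) is the receptor for VEGF-C. The angiopoietins act on TEK (TIE2), which pairs with the orphan receptor TIE1 and is dephosphorylated by PTPRB (VE-PTP), while angiopoietin 2 is released by activated endothelium and often opposes TEK signalling. In tumors VEGF-A is made by hypoxic tumor cells and macrophages, so ligand and receptors commonly lie in different cells.

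The upstream sequences of 4 receptor genes that were higher in the iron positive fraction are shown, both main VEGF-A receptors and the pair of TIE receptors. Beside them is that of Vegfa, the ligand gene of KDR and FLT1, which did not pass the test. The RefSeq promoter table (GRCm38.p6) matched 8 of the 10 genes, and each line gives the 250 bases before an annotated start, 5′ to 3′ on the strand of the gene. Capitals mark GGAA on either strand (TTCC on the other), the core letters read by ETS factors, a family that includes the endothelial regulator ERG.
Kdr, chr5:75978456-75978705, minus strand: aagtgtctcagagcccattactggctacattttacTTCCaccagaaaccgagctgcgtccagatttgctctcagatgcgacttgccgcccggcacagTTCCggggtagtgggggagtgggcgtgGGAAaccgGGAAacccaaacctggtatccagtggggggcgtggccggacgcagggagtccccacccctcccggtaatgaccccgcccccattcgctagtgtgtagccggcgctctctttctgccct
Flt1, chr5:147726012-147726261, minus strand: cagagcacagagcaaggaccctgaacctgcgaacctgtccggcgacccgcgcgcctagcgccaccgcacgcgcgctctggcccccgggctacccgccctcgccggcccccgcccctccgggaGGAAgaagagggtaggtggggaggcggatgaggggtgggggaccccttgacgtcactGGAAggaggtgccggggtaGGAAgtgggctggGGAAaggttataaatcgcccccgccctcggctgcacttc
Tek, chr4:94739039-94739288, plus strand: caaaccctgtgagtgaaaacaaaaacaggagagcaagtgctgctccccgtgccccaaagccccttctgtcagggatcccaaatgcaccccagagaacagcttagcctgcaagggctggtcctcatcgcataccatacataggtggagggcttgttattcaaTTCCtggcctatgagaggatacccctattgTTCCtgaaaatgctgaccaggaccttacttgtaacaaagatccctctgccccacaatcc
Tie1, chr4:118489850-118490099, minus strand: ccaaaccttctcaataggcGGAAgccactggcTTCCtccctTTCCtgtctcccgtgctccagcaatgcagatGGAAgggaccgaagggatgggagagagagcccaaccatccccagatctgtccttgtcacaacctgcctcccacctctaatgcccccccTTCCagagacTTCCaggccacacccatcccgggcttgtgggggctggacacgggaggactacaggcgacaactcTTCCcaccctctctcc
Vegfa, chr17:46032378-46032627, minus strand: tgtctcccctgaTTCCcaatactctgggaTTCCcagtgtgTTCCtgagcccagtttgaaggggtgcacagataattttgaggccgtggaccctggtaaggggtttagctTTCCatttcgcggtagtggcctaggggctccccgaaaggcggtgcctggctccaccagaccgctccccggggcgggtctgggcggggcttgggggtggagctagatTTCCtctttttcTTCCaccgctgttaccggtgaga
GGAA occurred 4 times in the Kdr window, 4 times in Flt1, 2 times in Tek, 7 times in Tie1 and 6 times in Vegfa. Of 32851 promoter windows of the same length, 93.5% held at least 1 match, with a median of 3, so a match by itself is common. The longer AGGAAG (either strand, overlapping GGAA) occurred 2 times in Flt1 and 1 time in Tie1, against 29.5% of all windows with a match. The hypoxia-element core ACGTG (either strand) had no match in these 5 windows and was present in 16.6% of all. A second annotated start of Vegfa, at chr17:46025164-46025413 and not printed, had 1 match.

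Libraries held 19.04 to 24.31 M estimated counts. Over the 13343 genes tested with edgeR, 1133 passed as higher and 695 as lower in iron positive libraries (adjusted p under 0.05), and a fit with the tag as a block gave 1705 and 1253. Whether the tags stand for separate animals is not stated in the labels, and p-values therefore reflect only how these libraries vary, which may be technical. The share of calls that were higher was 62.0%, against 76.4% with library totals and 99.2% when libraries were scaled to macrophage markers, which moved the median of all genes to 0.37 (log2). The 14 endothelial markers summed to 240.0 to 1808 CPM (read counts scaled to a common library size by TMM) in iron positive libraries and 67.7 to 118.3 CPM in iron negative libraries, and all 14 were higher. Macrophage markers were abundant in both fractions, at 12860 to 16590 CPM in iron positive and 18050 to 20120 CPM in iron negative libraries. In bulk samples fewer cells of a type and less RNA per cell cannot be told apart.

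Both main VEGF-A receptors were far higher in the iron positive fraction. Kdr (chr5:75932827-75978458, minus strand) had 11.96, 92.5, 73.0 and 17.5 CPM in the iron positive libraries 3L, 3R, 4R and 5L, against 2.78, 3.80, 3.27 and 2.0 CPM in the iron negative libraries of the same tags. The groups did not overlap, and 3R and 4R stood well above 3L and 5L within the iron positive fraction. The log2 fold change of Kdr was 4.04 ± 0.70 (SE, edgeR adjusted p = 0.0176). Flt1 (chr5:147561604-147726011, minus strand) had 14.1, 162.9, 78.8 and 19.5 CPM in iron positive libraries 3L, 3R, 4R and 5L, against 0.928, 5.36, 2.37 and 1.13 CPM in iron negative ones. Its order of iron positive libraries was that of Kdr, again with no overlap between the fractions, and its log2 fold change was 4.83 ± 0.95 (SE, edgeR adjusted p = 0.0193).

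Flt4 (chr11:49609263-49652739, plus strand), the VEGF-C receptor of lymphatic and sprouting endothelium, followed the same pattern at a lower level. It had 3.39, 31.2, 18.4 and 4.76 CPM in iron positive libraries 3L, 3R, 4R and 5L, against 0.0442, 1.27, 0.537 and 0.348 CPM in iron negative ones. The lowest iron positive library stood above the highest iron negative one, and the log2 fold change was 4.72 ± 0.95 (SE, edgeR adjusted p = 0.0202). Lymphatic markers gave little to set beside it: 2 of 6 were tested and neither passed (edgeR), Lyve1 with a log2 fold change of 2.10 (adjusted p = 0.108) and Pdpn with 1.13 (adjusted p = 0.117). The sum of these 2 had the iron positive order 3L, 4R, 5L, 3R, unlike Flt4. Prox1, the defining transcription factor of lymphatic endothelium, was listed at 0 to 0.109 TPM in iron positive libraries and at 0 in every iron negative library. Ccl21a, also untested, was listed at 0 to 2.65 TPM in iron positive and 0 to 0.111 TPM in iron negative libraries. The untested Reln and Mmrn1 reached at most 0.0663 and 0.0157 TPM in any library.

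The angiopoietin receptor Tek, its partner Tie1 and the phosphatase Ptprb showed the widest separations among the 10 genes. Tek (chr4:94739289-94874976, plus strand) had 2.29, 23.0, 17.2 and 3.92 CPM in iron positive libraries 3L, 3R, 4R and 5L, against 0, 0.975, 0.493 and 0.0435 CPM in iron negative ones. Iron negative Tek was thus close to the limit of detection, and its log2 fold change of 4.95 ± 1.10 (SE, edgeR adjusted p = 0.0252) rests on few counts there. Tie1 (chr4:118471191-118490061, minus strand) had 15, 129.0, 69.2 and 16.4 CPM in iron positive libraries, against 0.619, 3.02, 1.52 and 0.304 CPM in iron negative ones. Its log2 fold change was 5.41 ± 0.94 (SE, edgeR adjusted p = 0.0176), with no overlap between the groups. Ptprb (chr10:116275523-116389535, plus strand) had 14.7, 136.5, 76.0 and 22.8 CPM in iron positive libraries, against 0.133, 2.92, 1.25 and 0 CPM in iron negative ones. It had the largest log2 fold change of the 10 genes, 5.89 ± 1.08 (SE, edgeR adjusted p = 0.0183), which was 7.07 without iron negative 3R and 5.17 without iron positive 3R. Tek, Flt4 and Ptprb reached 10 estimated counts in all 4 iron positive but only 2 iron negative libraries, and Tie1 in 4 iron positive and 3 iron negative ones, so these 4 genes had low counts in part of the iron negative group. The same library 3R moved other folds by over 1.5 times: without iron negative 3R the log2 fold change was 5.54 for Flt1, 5.51 for Flt4, 5.99 for Tek and 6.13 for Tie1. Without iron positive 3R it was 3.95 for Flt1, 4.02 for Flt4 and 4.64 for Tie1.

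Nrp1 (chr8:128358604-128503363, plus strand), the co-receptor that binds VEGF-A and semaphorins and is also carried by macrophages, did not follow the kinases. It had 190.3, 163.8, 192.1 and 192.4 CPM in iron positive libraries 3L, 3R, 4R and 5L, against 173.5, 169.9, 170.8 and 192.7 CPM in iron negative ones. The groups overlapped, iron positive was higher in 2 of 4 pairs of equal tag, and library 3R, highest for the kinases, was lowest for Nrp1. Its log2 fold change was 0.06 ± 0.07 (SE, edgeR adjusted p = 0.601). The call depended on the scaling: relative to macrophage markers it was 0.43 (edgeR adjusted p = 0.0111), where the median of all genes was 0.37.

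**Figure D1:**
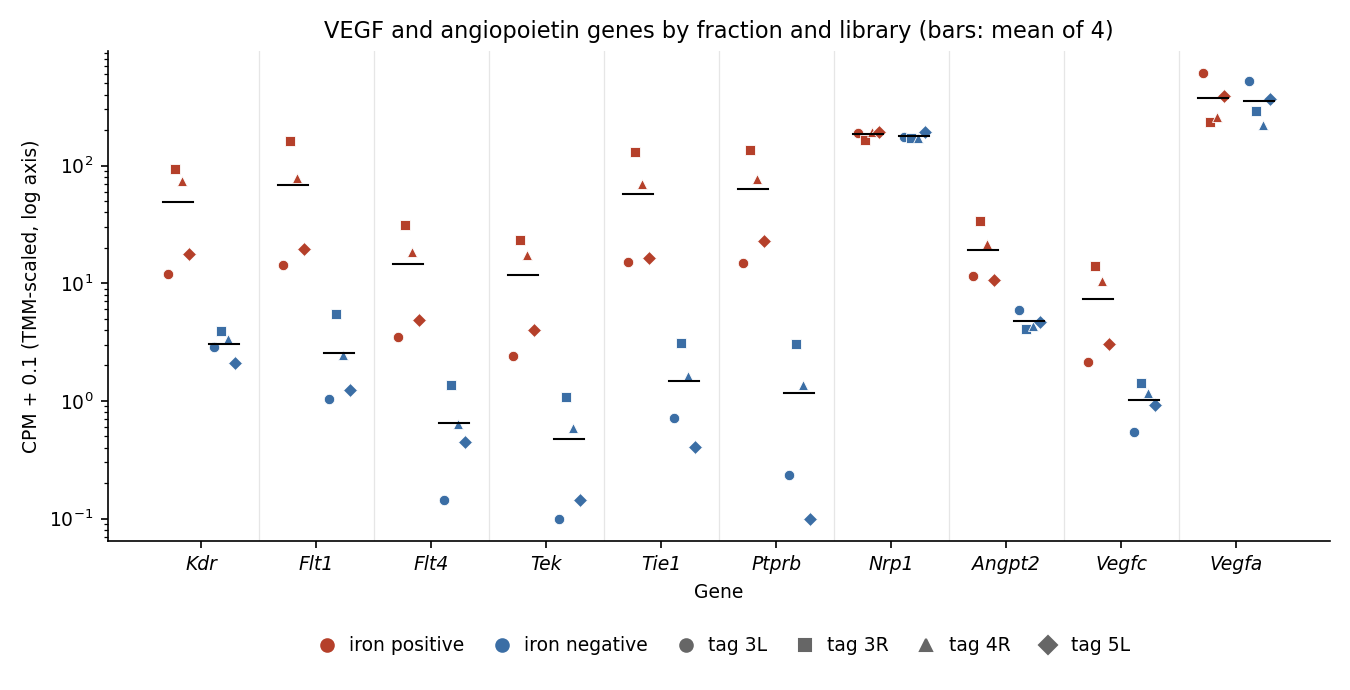
CPM + 0.1 of each of the 10 genes on a log axis, iron positive libraries left of iron negative libraries, with 1 point per library and the mean of 4. Iron positive points lie above all iron negative points for 8 genes, while those of Nrp1 and Vegfa overlap.

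Of the ligands, Angpt2 and Vegfc were higher in the iron positive fraction and Vegfa did not pass the test. Angpt2 (chr8:18690263-18741562, minus strand) had 11.3, 33.5, 21.4 and 10.48 CPM in iron positive libraries 3L, 3R, 4R and 5L, against 5.79, 3.997, 4.21 and 4.57 CPM in iron negative ones. The groups did not overlap, and the log2 fold change of 2.04 ± 0.38 (SE, edgeR adjusted p = 0.0183) was the smallest of those called. It was 1.36 with offsets for effective length and 1.24 with limma on log2(TPM + 1), still past the threshold (adjusted p = 0.0169 with edgeR and 0.0346 with limma). Angpt2 lies inside Mcph1 on the other strand. Mcph1 had 12.8 ± 1.46 CPM in iron positive and 13.1 ± 1.06 CPM in iron negative libraries (SD, n = 4 each). Vegfc (chr8:54077606-54187096, plus strand) had 2.04, 13.9, 10.3 and 2.95 CPM in iron positive libraries, against 0.442, 1.32, 1.08 and 0.826 CPM in iron negative ones. The log2 fold change of Vegfc was 2.99 ± 0.66 (SE, edgeR adjusted p = 0.0252), again without overlap.

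Vegfa (chr17:46016993-46032369, minus strand) was the most abundant of the 10 genes in both fractions. It had 610.4, 233.5, 255.8 and 388.3 CPM in iron positive libraries 3L, 3R, 4R and 5L, against 522.4, 290.2, 220.8 and 367.4 CPM in iron negative ones. Libraries of equal tag lay close to each other, with 3L high in both fractions, and the fractions overlapped throughout. The log2 fold change was 0.09 ± 0.35 (SE, edgeR adjusted p = 0.894) in the fit that does not use the tags. With the tag as a block it was 0.05 ± 0.099 (SE, edgeR adjusted p = 0.7485). In fits without the tags the sign turned to -0.26 without iron positive 3L and to -0.08 without iron negative 4R. Leaving out 1 library leaves its tag in 1 fraction only. Among 12 other targets of hypoxia-inducible factors 3 were higher and none lower, with a median log2 fold change of 0.47 against -0.01 over all genes. The vasodilator peptide gene Adm had a log2 fold change of 2.87 ± 0.49 (SE, edgeR adjusted p = 0.0173), Egln3, an oxygen sensor, 1.39 ± 0.33 (SE, adjusted p = 0.0301) and Ankrd37 0.86 (adjusted p = 0.047).

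In all, 8 of the 10 genes were called higher and 0 lower by edgeR, against 8.49% of all genes tested called higher and 5.21% called lower. None was lower at an unadjusted p under 0.05 or by DESeq2. Every iron positive library exceeded every iron negative library for the same 8, as for 11.2% of all genes tested. Of these 8, Tek, Flt4, Ptprb and Tie1 reached 10 estimated counts in 4 libraries of the iron positive group only. Vegfc had 10 in iron negative 3L, the deepest library at 24.31 M, and the filter asks for 10 at the median depth. These genes, Vegfc included, thus passed the expression filter only through the group where they were high. The calls rested on the iron negative libraries: without any 1 of the 4, none of the 8 passed, with edgeR adjusted p of 0.0528 to 0.0781 and all 8 still at an unadjusted p under 0.05. Without iron positive 4R, 5 passed and Flt4, Tek and Vegfc did not. Over all genes, leaving out iron negative 3L, 3R or 4R also left 0 calls (smallest adjusted p 0.0625, 0.0503 and 0.0634), and leaving out 5L left 26 higher and 12 lower.

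**Figure D2:**
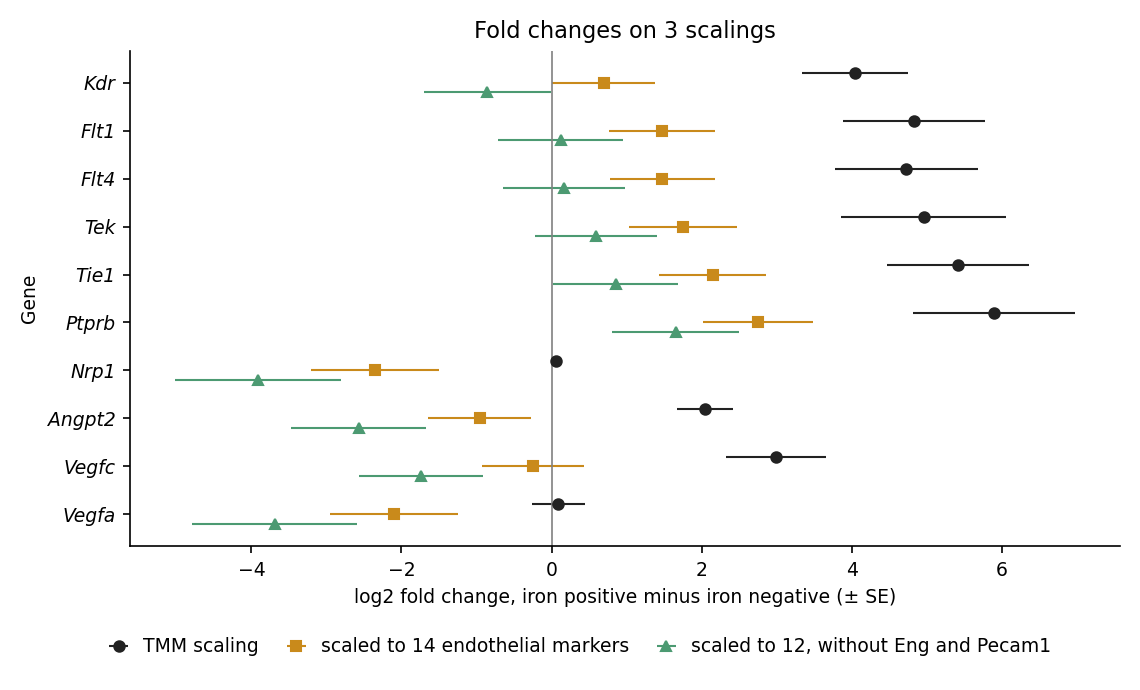
Log2 fold change (iron positive minus iron negative) with SE of each gene on 3 scalings: TMM, the sum of 14 endothelial markers, and 12 of them without Eng and Pecam1. Under TMM scaling 8 genes lie between 2.04 and 5.89 and Nrp1 and Vegfa lie near 0.

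On the length-scaled TPM scale, which allows genes to be compared, the iron positive order of mean levels was Vegfa, Nrp1, Flt1, Tie1, Angpt2, Kdr, Ptprb, Vegfc, Tek and Flt4. Vegfa averaged 323.0 ± 120.6 TPM in iron positive and 253.4 ± 59.4 TPM in iron negative libraries, and Nrp1 70.6 ± 5.34 TPM in iron positive and 65.4 ± 4.17 TPM in iron negative libraries (SD, n = 4 each). From Flt1 downwards the SDs of neighbours in that order overlapped: Flt1 averaged 19.9 ± 18.1 TPM and Tie1 19.8 ± 18.8 TPM in iron positive libraries. In iron negative libraries Flt1 averaged 1.14 ± 1.25 TPM and Tie1 0.50 ± 0.416 TPM. Angpt2 ranked number 5 in the iron positive fraction at 14.4 ± 4.56 TPM and number 3 in the iron negative fraction at 5.31 ± 0.878 TPM. The lowest, Flt4, averaged 3.16 ± 2.91 TPM in iron positive and 0.118 ± 0.106 TPM in iron negative libraries. These levels sum all transcripts of a gene, noncoding ones included, and the order differs for coding transcripts. Coding transcripts of Tie1 stood above those of Flt1 in every iron positive library. The coding Angpt2-201 averaged 6.54 ± 4.48 TPM in iron positive libraries, below Kdr-201 at 11.1 ± 9.41 TPM (SD, n = 4 each).

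Within the iron positive fraction the kinases moved together from library to library. The order 3R, 4R, 5L, 3L held for 7 of the 10 genes (Kdr, Flt1, Flt4, Tek, Tie1, Ptprb and Vegfc), and the endothelial marker sum had the same order: 1808 CPM for 3R, 1161 for 4R, 314.6 for 5L and 240.0 for 3L. The highest library exceeded the lowest 7.73-fold for Kdr, 10.1-fold for Tek and 6.78-fold for Vegfc, against 7.53-fold for the marker sum. Angpt2 varied less, 3.19-fold, and Nrp1 1.18-fold. Vegfa ran in the opposite order, 3L, 5L, 4R, 3R, over a 2.61-fold range.

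Markers of other cell types moved with the fractions too. Pericyte and fibroblast sums had the same order of iron positive libraries as the endothelial sum. Pericyte markers summed to 76.3 to 529.7 CPM in iron positive and 27.4 to 54.9 CPM in iron negative libraries, with 7 of 10 higher. Fibroblast markers summed to 496.3 to 4713 CPM in iron positive and 129.0 to 391.7 CPM in iron negative libraries, with 6 of 9 tested higher. All 7 skeletal muscle markers were higher, at 19.5 to 60.3 CPM in iron positive and 2.46 to 4.68 CPM in iron negative libraries. Platelet markers summed to 445.3 to 1575 CPM in iron positive and 400.2 to 489.9 CPM in iron negative libraries, and 1 of 3 tested passed. Of the macrophage markers 4 of 10 were lower and none higher, Csf1r at 1814 ± 246 CPM in iron positive and 2766 ± 83.6 CPM in iron negative libraries (SD, n = 4 each). Scaled to the macrophage sum itself, the calls of Adgre1 and C1qc ended. Both genes are part of that sum, so this scaling cannot test how firm their calls are. Markers of perivascular macrophages, some of which carry TEK, summed to 3604 to 5917 CPM in iron positive and 4058 to 5005 CPM in iron negative libraries, and only Cd163 of 6 tested passed (2.22 ± 0.58, SE, edgeR adjusted p = 0.0398). The part of each cell type in the levels of the 10 genes was not tested.

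**Figure D3:**
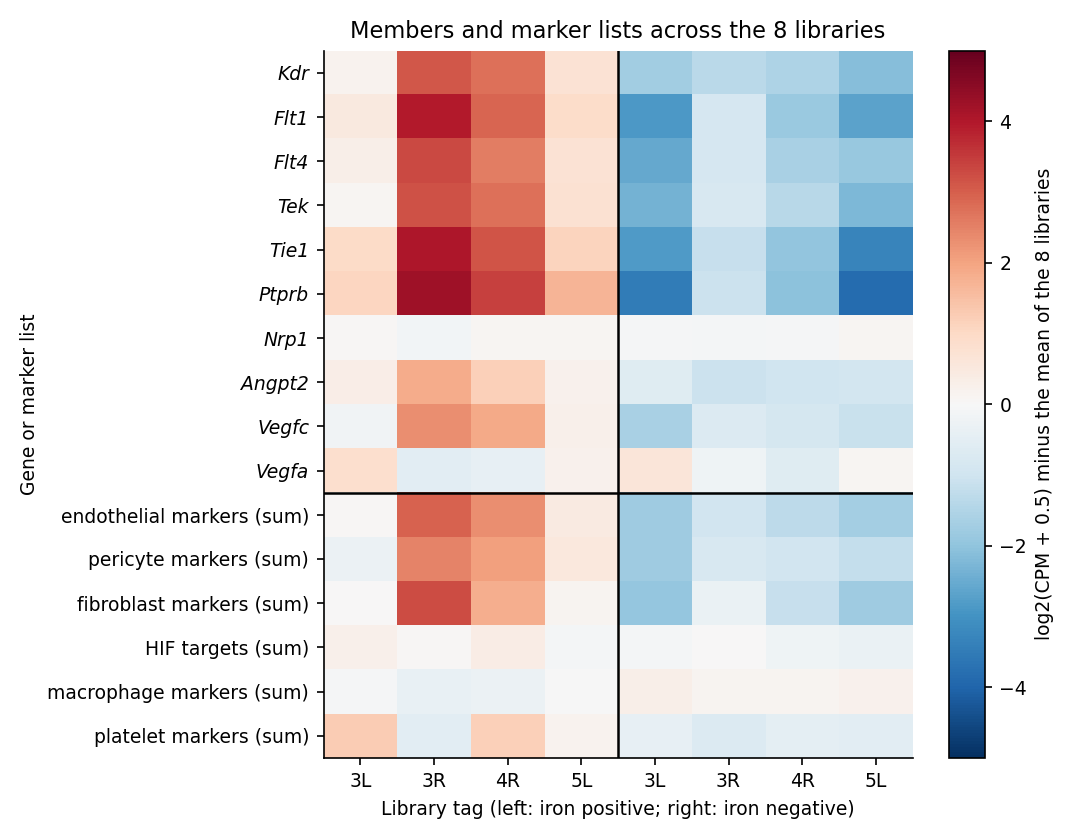
Log2(CPM + 0.5) of each gene and of marker sums, minus its own mean over the 8 libraries, as a colour, with iron positive libraries left of iron negative ones. The kinases and Vegfc share the order 3R, 4R, 5L, 3L with the endothelial sum, while Nrp1 stays near 0 and Vegfa runs in the opposite order in iron positive libraries.

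To set the genes against the endothelial transcripts themselves, the edgeR test was repeated with each library scaled to the sum of the 14 endothelial markers, a fit in which 1.15% of all genes were higher, 91.6% lower, and the median gene stood at -2.46. Nrp1 and Vegfa were lower on this scale, with log2 differences of -2.36 (adjusted p = 0.00694) and -2.10 (adjusted p = 0.016). Angpt2 at -0.96 (adjusted p = 0.172), Vegfc at -0.24 (adjusted p = 0.728) and Kdr at 0.69 (adjusted p = 0.325) did not pass. By contrast, Flt1, Flt4, Tek, Tie1 and Ptprb were higher, from 1.47 for Flt1 to 2.75 for Ptprb. Leaving out single libraries left 2 to 5 of these 5 calls, with Tie1 and Ptprb passing each time, and 1 to 2 of the lower ones, since Vegfa did not pass without iron negative 3L or iron positive 4R. The 5 higher calls rested on Eng and Pecam1, which myeloid cells are known to make too: they held 29.7% of the marker sum in iron positive and 73.5% in iron negative libraries, and the part of such cells was not tested. With the other 12 markers, a setting chosen after seeing the data, 0 of the 10 genes were higher with edgeR, adjusted or unadjusted, against 0.0675% of all genes. The value of Kdr turned to -0.86 (adjusted p = 0.314), and that of Ptprb was 1.66 (adjusted p = 0.0519). On that scale 4 genes were lower, against 96.6% of all genes: Nrp1, Vegfa, Angpt2 at -2.57 (adjusted p = 0.00477) and Vegfc at -1.74 (adjusted p = 0.0364).

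Ligands were then set against receptors, and receptors against each other, as the log2 ratio of TPM (pseudocount 0.1 TPM) in each library. The 8 pairs were tested with a two-sided exact permutation test whose smallest possible p is 0.0286. TPM here sums all transcripts of a gene, and ratios of coding transcripts alone were not tested. Coding transcripts held 21.6% to 54.5% of Flt1 in iron negative and 44.0% to 71.0% in iron positive libraries. For Angpt2 the shares were 19.2% to 26.0% and 26.8% to 69.6%. In iron negative 3R, 1 estimated count of the noncoding Flt1-205 gave 1.18 of the 3.01 TPM of Flt1. With that pseudocount, Vegfa over Kdr was 182.1, 9.77, 14.4 and 87.8 in iron positive libraries 3L, 3R, 4R and 5L, against 474.0, 239.4, 220.4 and 523.7 in iron negative ones. Kdr was only 0.445 to 0.832 TPM in iron negative libraries, so adding 0.1 TPM makes those ratios smaller than plain TPM ratios. The ratio was thus lower in every iron positive library (log2 difference -3.13, exact p = 0.0286, 0.0457 after Benjamini-Hochberg over 8 ratios). With a pseudocount of 1 TPM the difference was -2.18 (exact p = 0.0857). Nrp1 over Kdr likewise differed by -3.33 (exact p = 0.0286, adjusted 0.0457), with ratios of 25.9, 3.0, 4.45 and 18.1 in iron positive libraries, against 91.0, 68.6, 77.7 and 130.4 in iron negative ones. Vegfa over Flt1 differed by -3.58 (exact p = 0.0571, adjusted 0.0653) and Angpt2 over Tek by -2.36 (exact p = 0.0571, adjusted 0.0653), and neither passed this test, which does not use the tags. Within tags both ratios were lower in the iron positive library of all 4 pairs, by log2 differences of -4.54 to -2.52 for Vegfa over Flt1 and -2.73 to -2.02 for Angpt2 over Tek. An exact sign-flip test of 4 pairs, added after seeing the data, cannot go below 0.125, which both reached.

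The remaining ratios, Vegfc over its receptor Flt4 among them, were not firm. Flt1 over Kdr was 0.77 ± 0.24 log2 units in iron positive and 0.31 ± 0.99 in iron negative libraries (SD, n = 4 each, exact p = 0.457). Vegfc over Flt4 differed by -0.93, Ptprb over Tek by 1.12 and Tie1 over Tek by 1.01 (each exact p = 0.0286, adjusted 0.0457). Their denominators were close to 0 in iron negative libraries, and none of these differences held under every pseudocount. Vegfc over Flt4 was -0.0025 (exact p = 0.971) with 1 TPM. With 0.01 TPM, Ptprb over Tek was 1.07 (exact p = 0.143) and Tie1 over Tek turned to -0.18 (exact p = 0.943).

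The make-up of transcripts is given for the genes with the clearest forms, without a test because no uncertainty per transcript was used here. Flt1-202, the full-length receptor mRNA with 30 exons, averaged 6.26 ± 6.09 TPM in iron positive and 0.159 ± 0.139 TPM in iron negative libraries (SD, n = 4 each). Flt1-203, a 13-exon form whose last exon runs past an exon end of Flt1-202, as in the secreted receptor, averaged 6.68 ± 7.19 TPM in iron positive and 0.174 ± 0.174 TPM in iron negative libraries. Both forms were thus of like level within each fraction. The retained-intron transcript Flt1-206 held 1.63% to 7.88% of Flt1 in iron positive libraries and 22.7% to 78.4% in iron negative ones. Its own level was 0.497 ± 0.233 TPM in iron positive and 0.413 ± 0.187 TPM in iron negative libraries (SD, n = 4 each), from 5 to 20 estimated counts a library. Of Tek, the coding transcript Tek-203 held 57.5% or more of the gene in iron positive libraries and was listed at 0 in iron negative ones, where all of the few counts went to Tek-201. Tie1-201 held 84.7% to 92.5% of Tie1 in iron positive and 24.9% to 87.3% in iron negative libraries.

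For Angpt2 the coding transcript differed more between the fractions than the noncoding one. The coding Angpt2-201 had 3.05, 12.6, 7.26 and 3.25 TPM in iron positive libraries 3L, 3R, 4R and 5L, against 1.47, 1.12, 1.17 and 1.13 TPM in iron negative ones. The noncoding Angpt2-202 averaged 7.82 ± 2.52 TPM in iron positive and 4.09 ± 0.779 TPM in iron negative libraries (SD, n = 4 each), and held 30.4% to 73.2% of Angpt2 in iron positive and 74.0% to 80.8% in iron negative libraries. With coding transcripts only, a setting chosen after seeing the data, the edgeR log2 fold change of Angpt2 was 2.35, that of Flt1 5.24 and that of Tie1 5.79, and the 8 calls held.

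Coding transcripts of Vegfa were present in both fractions. Vegfa-202 averaged 81.9 ± 39.2 TPM in iron positive and 75.9 ± 27.0 TPM in iron negative libraries (SD, n = 4 each), while the retained-intron Vegfa-208 averaged 67.3 ± 21.6 TPM in iron positive and 44.5 ± 9.14 TPM in iron negative ones. Coding transcripts held 57.7% to 59.5% of Vegfa in iron positive and 63.3% to 70.9% in iron negative libraries, without overlap. Nrp1 was almost wholly Nrp1-201, at 94.6% to 95.0% in iron positive and 92.5% to 93.8% in iron negative libraries.

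**Figure D4:**
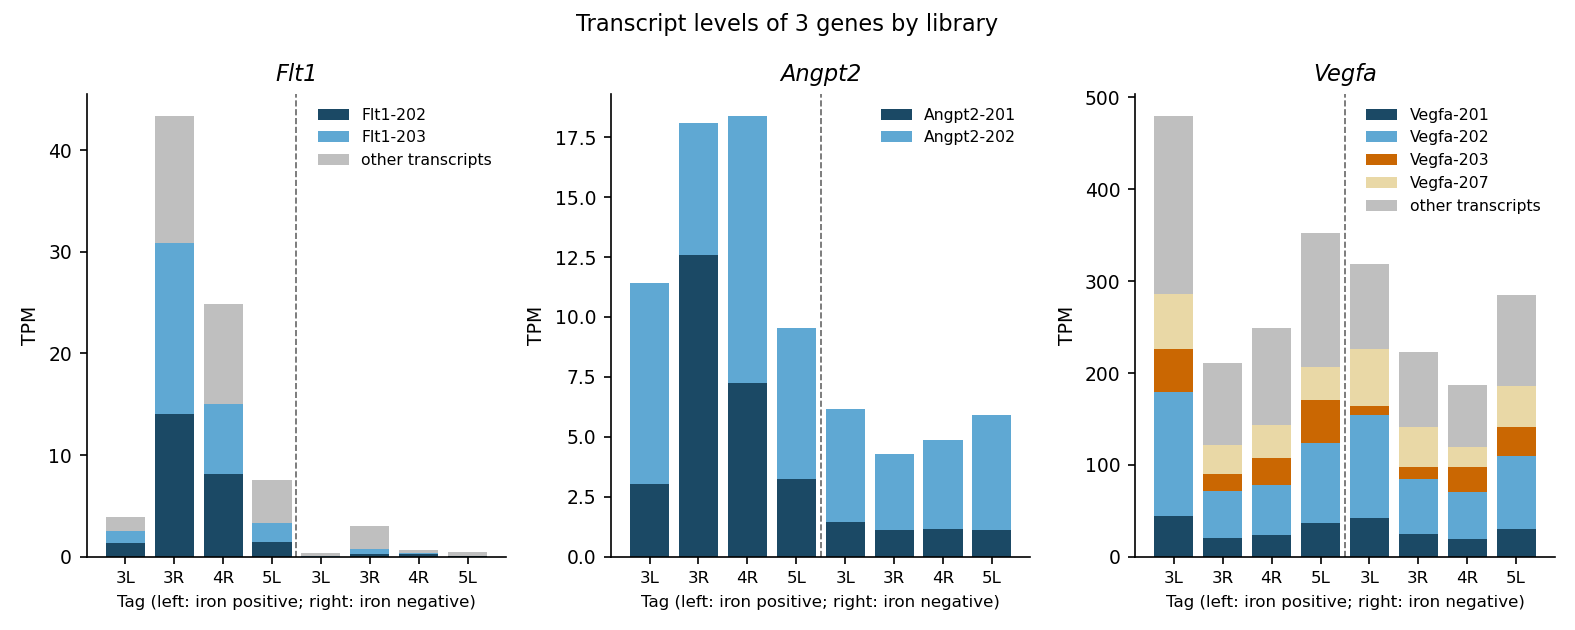
Stacked bars of TPM by transcript for Flt1, Angpt2 and Vegfa in each library, iron positive libraries left of the dashed line and iron negative ones right of it, with further transcripts in grey. Angpt2-201 reaches 12.6 TPM in iron positive 3R and stays between 1.12 and 1.47 TPM in iron negative libraries.

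Results for the rest of the pathway were mixed. Of 6 further ligands and co-receptors 4 were tested and 1 was higher, Nrp2, the co-receptor for VEGF-C, with 247.5 ± 56.9 CPM in iron positive and 167.3 ± 9.78 CPM in iron negative libraries (SD, n = 4 each, log2 fold change 0.57 ± 0.15 SE, edgeR adjusted p = 0.0434). The FLT1 ligand Pgf had a log2 fold change of 2.09 ± 0.61 (SE, adjusted p = 0.0553), Vegfd 1.08 (adjusted p = 0.197) and Vegfb -0.09 (adjusted p = 0.393). Angpt1, the activating ligand of TEK, was too low to test, at 0.133 to 1.06 TPM in iron positive and 0.0132 to 0.13 TPM in iron negative libraries.

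Among 23 signal transducers used by VEGF receptors and TEK, 5 were higher and 3 lower, with a median log2 fold change of -0.05. Nos3, the endothelial nitric oxide synthase, had the largest log2 fold change among these, 5.08 ± 0.96 (SE, edgeR adjusted p = 0.0185), followed by the kinases Yes1 at 2.32 and Ptk2 at 1.92. Gab1 at 0.68 was higher as well, while Src at -0.57, Prkcb at -0.46 and Rac1 at -0.27 were lower. Scaled to macrophage markers, none of these 3 was called lower. Of 10 genes known to be induced by VEGF in endothelial cells 4 were higher and none lower, with a median of 0.26: the Notch ligand Dll4 at 5.93 ± 0.95, the protease Adamts1 at 4.84 ± 0.78, the peptide Apln at 4.70 and the tip cell proteoglycan Esm1 at 3.65 ± 0.71.

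The genes closest in profile over the 8 libraries, among 9879 compared, differed between the members. Nearest to Kdr were Hey1, Nrarp and Bcam, with root mean square log2 differences of 0.169, 0.19 and 0.193. Nearest to Tek were Aplnr (0.20), Efnb2 (0.201) and Ccn1 (0.21), and nearest to Vegfc were Bmp1 (0.114), Dock6 (0.141) and Pitpnm2 (0.151). Nrp1 lay nearest to Eps15, Ccdc88a and Aar2 at 0.0324, 0.0338 and 0.0338, which is the closeness of profiles that hardly varied. Vegfa lay nearest to Trim25 (0.138), Cebpb (0.147) and Tmx4 (0.157), none of which passed the test between fractions.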

How the data were processed

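Bulk libraries of total RNA from 4 iron positive and 4 iron negative fractions were used. The submitters' processing notes name kallisto 0.46.2 and mm10, without the release of the transcripts. Each deposited table gives estimated counts for every transcript, not normalized, per the file headers, and TPM, in which the authors' kallisto run divided by effective length and scaled to a common total. Lengths and effective lengths are deposited as other values.

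Of 119414 transcripts, 116728 matched GENCODE release M21 (GRCm38) and 2686 did not (0.888% to 0.961% of counts, left out). Estimated counts were summed over 35975 genes, rounded, filtered with filterByExpr (13343 left) and tested with edgeR 4.0.16 in R 4.3.3, using TMM scaling, the quasi-likelihood F-test on the fraction alone and Benjamini-Hochberg adjustment over all genes, with 0.05 as the threshold. SEs are the absolute coefficient over the square root of F and are approximate. CPM is TMM-scaled and computed here. Counting does not use strand, so overlapping genes on opposite strands cannot be told apart. Alternatives were the tag as a block, other scalings and filters, DESeq2 1.42.0, limma 3.58.1 and each library left out. The steps were tested on simulated data.

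The members and lists were chosen with earlier results of these data known. Beside the 10 members, the text names up to 3 genes per list by smallest adjusted p, or the 2 highest where none passed, and the 3 nearest profiles (mean of at least 5 CPM) of 5 members. Eng, Pecam1, Nos3, Yes1, Gab1, Prkcb, Rac1, Apln, Pgf, Vegfd, Vegfb, Angpt1, Prox1, Ccl21a, Reln, Mmrn1 and Mcph1 were named after their values were seen. Of the genes this rule picked, 1 is not reported here. Equal tags were taken to pair the libraries, from the labels. Deviations from the fraction means correlated at 0.551 (3L), 0.553 (3R), 0.276 (4R) and 0.331 (5L) for equal tags, all above 0.1. Unequal tags passed 0.1 as well, up to 0.26 for iron positive 4R with iron negative 3R and 0.256 for 5L with 3L. The cutoff of 0.1 thus does not separate equal from unequal tags, though each library correlated most with its own tag. No replicates agreed within counting noise (chi-square per gene 44.4 to 113 between iron positive and 9.61 to 27.8 between iron negative libraries).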

Additional observations from a re-analysis of the deposited data

Results flagged for a closer look

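The CPM of Nrp1 had 1 library apart from the other 3 in each fraction. In the iron positive fraction, 3R at 163.8 CPM lay below the others, and the gap to the nearest took up 0.927 of the range. In the iron negative fraction, 5L at 192.7 CPM lay above the others, with a gap of 0.842 of the range. Chance flags about 1 in 20 groups, and the full range was narrow in both fractions.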

How the results depend on the processing

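With the tag as a replicate block, taking equal tags as pairs, edgeR called 1705 genes higher and 1253 lower, and the same 8 members. Genes called higher and lower numbered 1703 and 1070 with DESeq2, 6051 and 47 with macrophage scaling, 413 and 205 with limma on log2(TPM + 1), and 706 and 270 with limma on log2(TPM + 0.1). Lower genes numbered 362 with library totals and 407 with effective length offsets. Leaving out single libraries gave 0 to 1454 higher and 0 to 964 lower genes, and 0 to 8 members higher. With limma on log2(TPM + 1), 5 members passed, without Flt4, Tek and Vegfc. Relative to endothelial markers, members called higher numbered 2 without Eng and 0 without Eng and Pecam1 (2 to 5 with single libraries left out), and members called lower 4 without both markers (1 to 2 with single libraries left out). There Kdr turned to -0.86. In fits that do not use the tags, the log2 fold change of Vegfa ranged from -0.26 to 0.35 with single libraries left out, with -0.08 without iron negative 4R. With the tag as a block and all libraries it was 0.05. The log2 difference of Vegfa/Kdr was -2.18 with 1 TPM as the pseudocount and -3.87 to -2.47 with libraries left out. That of Vegfc/Flt4 was -0.0025 with 1 TPM and -1.06 to -0.79 with libraries left out, and that of Nrp1/Kdr -3.84 to -2.80. Ptprb/Tek was 1.07 with 0.01 TPM and 1.02 to 1.199 with libraries left out, and Tie1/Tek -0.18 and 0.86 to 1.10. With the tag as a replicate block, a sign-flip test added after seeing the data gave the same differences (-3.13 for Vegfa/Kdr, -0.93 for Vegfc/Flt4, -3.33 for Nrp1/Kdr, 1.12 for Ptprb/Tek and 1.01 for Tie1/Tek) and cannot go below 0.125, so it says nothing about their stability. With a library left out the exact test of a ratio cannot go below 0.0571. Causes of these changes were not tested. Tek, Flt4 and Ptprb were near the detection limit in iron negative libraries, so their fold changes rest on few counts there. Vegfc/Flt4, Ptprb/Tek and Tie1/Tek depended on the pseudocount.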
